A study of Mus musculus with 6 samples.

Results

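Tuft cells are rare chemosensory cells of the intestinal epithelium, and 10 genes of their lipid mediator, cytokine and acetylcholine output were followed across sorted crypt epithelium of Apln knockout and wild-type mice. The genes were taken by symbol from the deposited count table, which holds 28564 genes. All 10 were in the table, and 9 of them passed the filter on low counts. They are Alox5, Alox5ap and Ltc4s (leukotriene synthesis), Ptgs1 and Hpgds (prostaglandin synthesis), the cytokine gene Il25, the cytokine receptor genes Il17rb, Il13ra1 and Il4ra, and Chat (acetylcholine synthesis).

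The study compared 3 samples from Apln-/- mice with 3 samples from wild-type C57Bl/6 mice, all male and aged 13 weeks. In every sample the small intestine was digested with Liberase TL, and live single cells carrying EpCAM and CD44 but neither CD31 nor CD45 were sorted as crypt epithelium. Apln encodes the secreted peptide apelin, and the comparison asks how crypt epithelial transcripts differ without it. Which part of Apln is deleted is not stated in the labels. The labels call the samples biological replicates without saying whether each came from 1 mouse, so p-values measure the spread between these samples. Libraries are numbered by the replicate numbers of the sample titles: knockout libraries 1, 2 and 3 are the deposited columns KO1, KO3 and KO4.

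In the small intestine tuft cells release IL-25, which acts through a receptor containing the Il17rb product on group 2 innate lymphoid cells. These answer with IL-13, which signals through the Il4ra and Il13ra1 products on epithelial progenitors and shifts them towards tuft and goblet cells. Tuft cells also make cysteinyl leukotrienes: 5-lipoxygenase (Alox5) and its activating protein (Alox5ap) turn arachidonic acid into leukotriene A4, and leukotriene C4 synthase (Ltc4s) joins that product to glutathione. Cyclooxygenase 1 (Ptgs1) and haematopoietic prostaglandin D synthase (Hpgds) make prostaglandin D2, and choline acetyltransferase (Chat) makes acetylcholine.

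The libraries held 23046880 to 26513481 counts, of which 5144725 to 5623112 in knockout and 6037237 to 7616648 in wild-type libraries lay outside the 5 most abundant entries, among them both mitochondrial ribosomal RNAs. Apln had 0 counts in each knockout library, against 29, 7 and 5 counts in wild-type libraries 1, 2 and 3. Epithelial genes were abundant in every library: the 13 genes of the crypt epithelium list, Epcam and Cd44 among them, summed to 3650 to 4783 CPM (counts per library scaled to a common total by TMM) in knockout and 3232 to 4583 CPM in wild-type libraries. Wild-type library 3 stood apart in the goblet cell mucin gene Muc2, with 1896 CPM against 519 to 713 CPM in the other wild-type libraries. Knockout library 2 stood apart in smooth muscle genes, with 10.8 CPM of Myh11 against at most 0.937 CPM in every other library.

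Levels of Alox5, Il17rb and Hpgds were lower in Apln knockout crypt cells at an unadjusted p under 0.05 in edgeR's quasi-likelihood test. Once p-values were adjusted over all genes by Benjamini and Hochberg's method, 0 of the 9 tested genes passed the threshold of 0.05. Over all 15122 genes tested, 0.172% passed in either direction, 0.0595% lower and 0.112% higher in knockout. By unadjusted p, 3 of the 9 were lower and 0 higher, where 7.65% of all genes were lower and 7.53% higher. Knockout over wild-type log2 fold changes of the 9 genes ran between -1.68 and 0.21 with a median of -0.78, beside a median of -0.01 over all genes tested, and 8 of the 9 were below 0. The CPM ranges of the groups did not overlap for 2 genes, Alox5 and Il17rb, both lower in knockout, where 9.56% of all genes did so, and 0 were higher without overlap, where 11.3% of all genes were. In bulk RNA fewer tuft cells and less of these transcripts per tuft cell cannot be told apart. With no filter the same edgeR test called 1 of the 10 genes, Alox5, where 2.2% of all genes passed. The DESeq2 Wald test gave no adjusted p for Il17rb, Ltc4s and Chat. Among the other tested genes it called Alox5 alone, where 5.73% of the 10137 genes with an adjusted p passed. With the replicate number as a block edgeR called Alox5 too, where 1.14% passed, and limma-voom called 0.

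**Figure D1:**
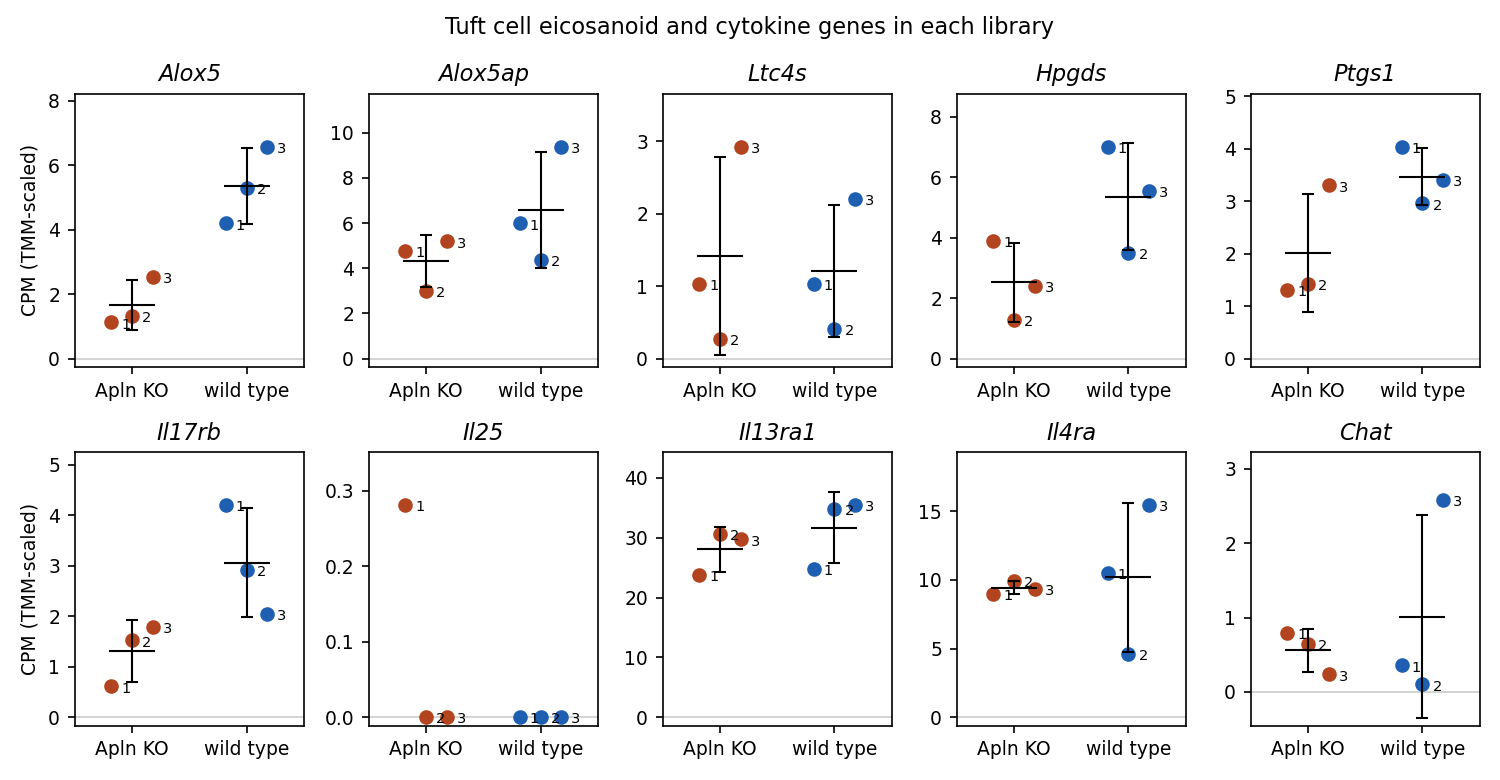
Level of each of the 10 genes in CPM (vertical axes, TMM-scaled, each panel on its own scale) in the 3 Apln knockout and 3 wild-type libraries. Points are libraries with their replicate number, horizontal lines are means and bars are SD, left out for Il25. Alox5 and Il17rb are the only panels in which every knockout library lies below every wild-type library.

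Promoters of the 3 genes of lowest p and of the other gene that held an octamer are shown because a factor of the POU family, Pou2f3, specifies tuft cells. RefSeq windows of 250 bases before to 50 after the start site (GRCm38.p6, the assembly called mm10) were found for 8 of the 10 genes, all but Alox5ap and Il25. Searched on both strands were the POU octamer ATGCAAAT, the STAT6-type palindrome (TTC and GAA separated by 4 bases) and the GC box GGGCGG. In the lines below, capitals mark octamers and GC boxes, and each sequence runs 5′ to 3′ on the strand of its gene. The windows are chr6:116461129-116461428 (minus strand) for Alox5, chr6:65144681-65144980 (minus strand) for Hpgds, chr14:30008847-30009146 (minus strand) for Il17rb and chr7:125552021-125552320 (plus strand) for Il4ra.
Alox5: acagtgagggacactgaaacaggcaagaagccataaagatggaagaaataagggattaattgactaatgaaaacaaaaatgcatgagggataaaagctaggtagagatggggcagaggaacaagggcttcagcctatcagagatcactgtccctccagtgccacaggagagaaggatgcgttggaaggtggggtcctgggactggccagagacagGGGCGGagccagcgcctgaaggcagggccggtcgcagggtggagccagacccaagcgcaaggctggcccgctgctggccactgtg
Hpgds: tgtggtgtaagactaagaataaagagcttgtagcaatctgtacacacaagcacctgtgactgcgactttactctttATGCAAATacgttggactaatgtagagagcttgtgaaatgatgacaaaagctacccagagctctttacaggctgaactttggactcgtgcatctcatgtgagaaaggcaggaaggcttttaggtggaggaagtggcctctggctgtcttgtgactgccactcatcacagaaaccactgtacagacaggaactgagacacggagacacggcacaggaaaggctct
Il17rb: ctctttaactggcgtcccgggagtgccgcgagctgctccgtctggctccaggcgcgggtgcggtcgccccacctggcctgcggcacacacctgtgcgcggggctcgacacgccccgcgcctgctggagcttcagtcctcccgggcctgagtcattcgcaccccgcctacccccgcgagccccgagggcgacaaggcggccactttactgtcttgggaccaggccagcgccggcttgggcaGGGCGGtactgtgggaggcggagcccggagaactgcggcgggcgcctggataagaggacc
Il4ra: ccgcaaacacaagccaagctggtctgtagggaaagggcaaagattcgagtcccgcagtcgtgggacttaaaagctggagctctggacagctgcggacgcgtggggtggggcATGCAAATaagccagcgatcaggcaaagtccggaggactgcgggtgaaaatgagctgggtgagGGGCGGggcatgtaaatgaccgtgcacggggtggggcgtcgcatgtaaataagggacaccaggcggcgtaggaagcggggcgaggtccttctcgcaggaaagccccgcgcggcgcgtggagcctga
The octamer was in 2 of the 8 windows, those of Hpgds and Il4ra, and in 1.74% of 32851 RefSeq windows of the same length. It began 174 bases before the RefSeq start site in Hpgds and 139 bases before it in Il4ra. The gene coordinates given below come from GENCODE and begin further upstream for both genes. By those coordinates both octamers lie within the gene, close to its 5′ end. The GC box was in 4 of the 8, Alox5, Il17rb, Il13ra1 and Il4ra, and in 35.7% of all windows. The STAT6-type palindrome was in 0 of the 8 and in 6.95% of all windows.

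Alox5 (ENSMUSG00000025701; mm10 chromosome 6, 116410077 to 116461178, minus strand), which encodes the enzyme that starts leukotriene synthesis, had the lowest p of the 10 genes. Its level was 1.12, 1.34 and 2.55 CPM in knockout libraries 1, 2 and 3, against 4.20, 5.30 and 6.58 CPM in wild-type libraries 1, 2 and 3. The highest knockout library thus lay below the lowest wild-type library. These levels rest on 24, 29 and 54 counts in knockout and 106, 154 and 209 counts in wild-type libraries. The log2 fold change was -1.68 ± 0.37 (SE; 95% interval -2.48 to -0.88), a level 3.21-fold higher in wild type, and edgeR's quasi-likelihood test gave an adjusted p of 0.0729 (0.000602 unadjusted). By p it ranked 123 among the 15122 genes, and 0.615% of all genes had a log2 fold change as low or lower. The adjusted p was 0.000901 in edgeR with no filter and 0.00184 in the DESeq2 Wald test, and over all 16 alternatives it lay between 0.000901 and 0.404. With no filter the SE was still 0.37, and the 95% interval, -2.40 to -0.96, had the width of a normal distribution. That fit thus gave a gene's own spread between replicates almost no weight. Its quasi-likelihood test also gave Myh11 an adjusted p of 5.26e-06, with 234 of 265 knockout counts in knockout library 2.

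Alox5ap (ENSMUSG00000060063; mm10 chromosome 5, 149264767 to 149288153, plus strand), whose membrane protein presents arachidonic acid to the lipoxygenase, was the most abundant of the 3 leukotriene genes per transcript length. It had 4.78, 3.00 and 5.19 CPM in knockout libraries 1, 2 and 3, against 5.98, 4.37 and 9.39 CPM in wild-type libraries. The groups overlapped, since wild-type library 2 was below 2 knockout libraries. Its log2 fold change of -0.61 ± 0.32 (SE) had an adjusted p of 0.406 in edgeR, and was -0.25 without wild-type library 3. Exons of Gm19719 on the other strand overlap its exons, and with the strand setting of the counting not given, reads of the pair cannot be told apart; Gm19719 had 1.99 ± 1.02 CPM in knockout and 3.41 ± 1.41 CPM in wild type (SD, n = 3 each).

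Ltc4s (ENSMUSG00000020377; mm10 chromosome 11, 50236461 to 50238616, minus strand) varied more between libraries of one genotype than between genotypes. It had 1.03, 0.276 and 2.93 CPM in knockout libraries 1, 2 and 3, against 1.03, 0.413 and 2.20 CPM in wild-type libraries. Library 3 was the highest and library 2 the lowest of each genotype. Knockout over wild type, the log2 fold change was 0.21 ± 0.77 (SE; 95% interval -1.46 to 1.87; adjusted p 0.932 by edgeR's quasi-likelihood test), an interval that holds both a 2-fold fall and a 2-fold rise, and without knockout library 3 the estimate was -0.89. Its counts were 22, 6 and 62 in knockout libraries 1, 2 and 3, against 26, 12 and 70 in wild-type libraries. Exons of Gm26542 lie on the other strand, at 1.68 ± 0.323 CPM in knockout and 1.75 ± 0.909 CPM in wild type (SD, n = 3 each).

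Of both prostaglandin genes, Hpgds had the lower p. Hpgds (ENSMUSG00000029919; mm10 chromosome 6, 65117293 to 65144908, minus strand) had 3.89, 1.29 and 2.41 CPM in knockout libraries 1, 2 and 3, against 7.01, 3.51 and 5.54 CPM in wild-type libraries. The groups overlapped only through knockout library 1 and wild-type library 2. Its log2 fold change was -1.08 ± 0.40 (SE; 95% interval -1.95 to -0.21), and edgeR gave an adjusted p of 0.233 (0.0190 unadjusted). It stayed between -1.53 and -0.76 under the 16 alternatives, with adjusted p-values of 0.0658 to 0.511.

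Ptgs1 (ENSMUSG00000047250; mm10 chromosome 2, 36230426 to 36252272, plus strand), the constitutive cyclooxygenase gene, had 1.31, 1.43 and 3.30 CPM in knockout libraries 1, 2 and 3, against 4.04, 2.96 and 3.40 CPM in wild-type libraries. Knockout libraries 1 and 2 lay below every wild-type library, and knockout library 3 was among the wild-type values. This gave a log2 fold change of -0.78 ± 0.40 (SE; adjusted p 0.391 by edgeR's quasi-likelihood test) and -1.33 without knockout library 3. Gm43621, whose exons overlap on the other strand, was at 0.405 ± 0.258 CPM in knockout and 0.486 ± 0.315 CPM in wild type (SD, n = 3 each).

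**Figure D2:**
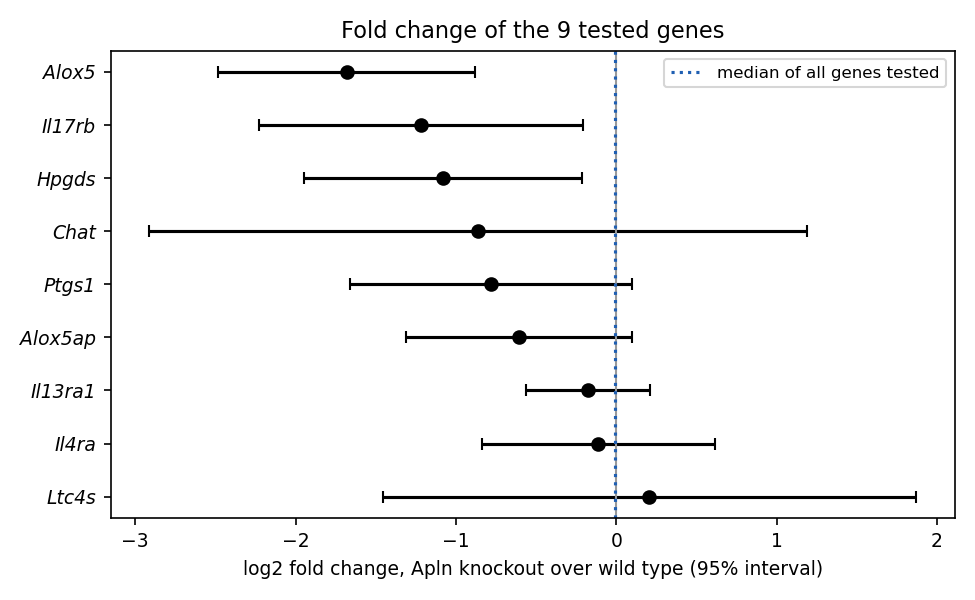
Log2 fold change of the 9 tested genes, Apln knockout over wild type (horizontal axis), with 95% intervals from the edgeR fit; the dotted line is the median of all genes tested. The intervals of Alox5, Il17rb and Hpgds lie below 0, and the other 6 include 0.

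Il25 (ENSMUSG00000040770; mm10 chromosome 14, 54932695 to 54935837, plus strand), the cytokine by which tuft cells alert innate lymphoid cells, was almost undetected. It had 6 counts in knockout library 1 and 0 in knockout libraries 2 and 3, against 0 in each wild-type library. With 0 counts a level of 3 counts remains possible, which is 0.138 to 0.142 CPM in those knockout libraries and 0.0945 to 0.119 CPM in wild-type libraries. The gene did not pass the filter; with no filter edgeR gave an adjusted p of 0.439. A difference between genotypes was not detectable at this depth. These limits take in counting error alone, because the reads carry no molecular identifiers and so are no independent molecules.

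Il17rb (ENSMUSG00000015966; mm10 chromosome 14, 29996135 to 30008896, minus strand), which encodes the IL-25-binding receptor subunit and is itself expressed by tuft cells, was the other gene whose groups did not overlap. It had 0.609, 1.52 and 1.79 CPM in knockout libraries 1, 2 and 3, against 4.20, 2.92 and 2.05 CPM in wild-type libraries 1, 2 and 3. Knockout library 3 and wild-type library 3 were close to each other, and the gap came mainly from the other 4 libraries. The log2 fold change was -1.22 ± 0.47 (SE; 95% interval -2.23 to -0.21), a level 2.33-fold higher in wild type, and edgeR gave an adjusted p of 0.242 (0.0219 unadjusted). Its exons overlap those of Actr8 on the other strand, and Actr8 was at 6.44 ± 1.41 CPM in knockout and 6.29 ± 0.287 CPM in wild type (SD, n = 3 each).

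Both chains of the type II IL-4 and IL-13 receptor, which crypt epithelium expresses beyond tuft cells, made up most of the counts of the 10 genes, 73.1% ± 6.98 in knockout and 61.7% ± 4.99 in wild type (SD, n = 3 each). Il13ra1 (ENSMUSG00000017057; mm10 X chromosome, 36112110 to 36171259, plus strand), the IL-13-binding chain, had 23.7, 30.7 and 29.7 CPM in knockout libraries 1, 2 and 3, against 24.8, 34.8 and 35.5 CPM in wild-type libraries. Library 1 was the lowest of each genotype. The log2 fold change was -0.18 ± 0.18 (SE; 95% interval -0.57 to 0.21; adjusted p 0.694 by edgeR's quasi-likelihood test), the narrowest interval of the 9 genes.

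Il4ra (ENSMUSG00000030748; mm10 chromosome 7, 125552120 to 125579474, plus strand), the signalling chain shared by IL-4 and IL-13, was almost even among knockout libraries, at 8.99, 9.95 and 9.34 CPM. Wild-type libraries 1, 2 and 3 spread widely around those values, at 10.5, 4.61 and 15.5 CPM. Il4ra had a log2 fold change of -0.11 ± 0.34 (SE; 95% interval -0.84 to 0.61; adjusted p 0.914 by edgeR's quasi-likelihood test). Its sign turned with the processing, to 0.09 with offsets for length and GC, 0.05 in limma-voom and 0.33 without wild-type library 3. Gm44876 on the other strand was at 0.593 ± 0.194 CPM in knockout and 0.729 ± 0.306 CPM in wild type (SD, n = 3 each).

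Chat (ENSMUSG00000021919; mm10 chromosome 14, 32408203 to 32465989, minus strand) was low, with 17, 14 and 5 counts in knockout libraries 1, 2 and 3, against 9, 3 and 82 counts in wild-type libraries. Wild-type library 3 alone held 82 of the 94 wild-type counts, and the other wild-type libraries were within or below the knockout range. In CPM the values were 0.796, 0.645 and 0.236 in knockout and 0.357, 0.103 and 2.58 in wild-type libraries. Its log2 fold change was -0.86 ± 0.94 (SE; adjusted p 0.720 by edgeR's quasi-likelihood test), and 1.28 without wild-type library 3.

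Levels of different genes were compared per length, as CPM per kilobase of the longest annotated transcript. In knockout the order was Il13ra1 (7.56 ± 1.01), Alox5ap (3.45 ± 0.933), Ltc4s (1.97 ± 1.91), Il4ra (1.79 ± 0.0925), Ptgs1 (0.703 ± 0.390), Hpgds (0.650 ± 0.335), Il17rb (0.508 ± 0.241), Alox5 (0.467 ± 0.215), Chat (0.196 ± 0.101) and, near 0, Il25 (SD, n = 3). In wild type it was Il13ra1 (8.53 ± 1.61), Alox5ap (5.26 ± 2.05), Il4ra (1.94 ± 1.03), Ltc4s (1.70 ± 1.27), Alox5 (1.499 ± 0.333), Hpgds (1.38 ± 0.452), Ptgs1 (1.21 ± 0.190), Il17rb (1.19 ± 0.420) and Chat (0.355 ± 0.477), with Il25 at 0 (SD, n = 3). Alox5 was thus lower in the order in knockout than in wild type. From Ptgs1 to Alox5 in knockout, and from Il4ra to Il17rb in wild type, each neighbour in the order differed from the next by less than the SD of either. With the union of exons as the length, 5 of the 10 genes held the same place in the knockout order, where Alox5 moved from place 8 to 6, and 6 of the 10 in the wild-type order.

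Extreme values were spread over several libraries. Among the 9 tested genes wild-type library 3 was the highest of all 6 libraries for 5 and wild-type library 1 for 3, and knockout library 3 was the highest for 1. Knockout library 1 was the lowest for 4, knockout library 2 for 3 and wild-type library 2 for 2. Without wild-type library 3 the median log2 fold change of the 9 genes was -0.25, against -0.78 with it.

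Tuft identity markers outside the 10 genes had mostly lower levels in knockout as well. Of 21 tested tuft identity markers 1 passed as lower, Plcb2, the phospholipase C of taste signalling (adjusted p 0.0460 by edgeR's quasi-likelihood test), and 0 passed as higher. Over all genes 0.0595% passed as lower by that test. By unadjusted p 11 were lower and 0 higher, and the median log2 fold change was -0.77, close to the -0.78 of the 9 genes. It was below 0 for 19 of the 21, and above 0 for the taste signalling genes Gng13 (0.77, on 8 to 19 counts per library) and Tas1r3 (0.62). CPM ranges did not overlap for 10 lower markers, where 9.56% of all genes did so. They did not overlap for 1 higher marker, Gng13, where 11.3% of all genes did so. The tuft cell master regulator gene Pou2f3 was at 3.69 ± 1.72 CPM in knockout and 9.52 ± 1.16 CPM in wild type, and the taste channel gene Trpm5 at 9.69 ± 3.43 and 19.5 ± 3.45 CPM in knockout and wild type (SD, n = 3 each). Next by p was Fyb, an adaptor gene, at 8.13 ± 2.91 CPM in knockout and 17.4 ± 5.70 CPM in wild type (SD, n = 3 each). The kinase gene Dclk1, a common marker of tuft cells, stood at 20.5, 12.3 and 29.2 CPM in knockout libraries 1, 2 and 3, against 31.8, 44.2 and 48.4 CPM in wild-type libraries. The whole list summed to 92.8 to 194 CPM in knockout and 223 to 320.0 CPM in wild-type libraries, so knockout library 2 was the poorest and wild-type library 3 the richest in tuft cell transcripts.

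**Figure D3:**
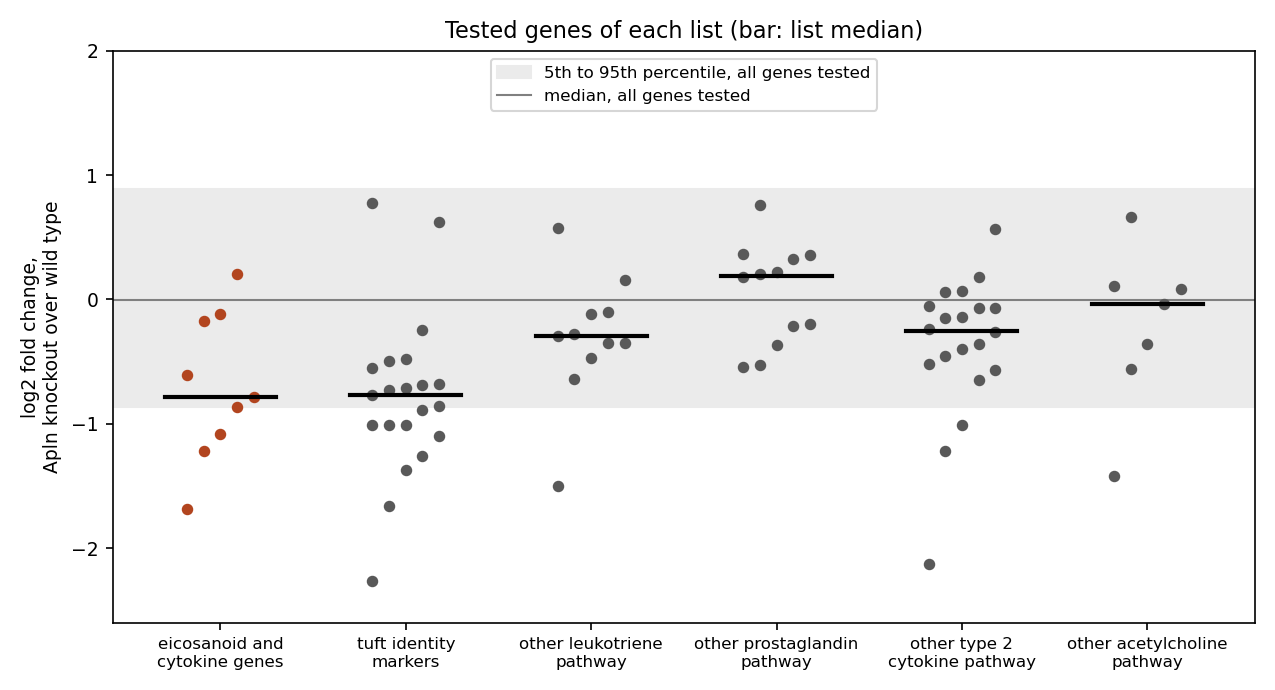
Log2 fold changes, Apln knockout over wild type (vertical axis), of the tested genes of 6 lists; each point is a gene, black bars are list medians, the grey band spans the 5th to 95th percentile of all genes tested and the grey line is their median. The eicosanoid and cytokine genes (median -0.78) and the tuft identity markers (median -0.77) lie mostly below the median of all genes, and the 4 lists of other pathway genes have medians between -0.30 and 0.19.

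Each gene was therefore also set against the tuft identity markers of its own library, as its log2 CPM minus the mean log2 CPM of the 21 markers. On this scale Alox5 was at -1.53, -0.83 and -0.93 in knockout libraries 1, 2 and 3, against -0.30, 0.30 and -0.35 in wild-type libraries, so the groups still did not overlap. It was the only 1 of the 9 genes of which this held. Over all genes, 0.172% were lower in knockout without overlap on this scale and 25.2% were higher. The markers themselves had a median log2 fold change of -0.77, which moves genes upward in knockout on this scale. They ran from -2.26 to 0.77, with Plcb2 at -1.66 beside -1.68 for Alox5, so Alox5 was not set apart from every marker. Relative values of the other 8 of the 9 genes overlapped between genotypes. Hpgds was at -0.57 ± 0.66 in knockout and -0.15 ± 0.53 in wild type, Il17rb at -1.47 ± 0.84 and -0.94 ± 0.92, and Ptgs1 at -0.87 ± 0.39 and -0.72 ± 0.50, in knockout and wild type in that order (SD, n = 3 each). Il13ra1 was at 2.99 ± 0.55 in knockout and 2.44 ± 0.49 in wild type, and Il4ra at 1.43 ± 0.54 in knockout and 0.66 ± 0.49 in wild type (SD, n = 3 each).

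Summed over the 10 genes, the log2 ratio of their CPM to that of the tuft identity list was -1.43 ± 0.47 in knockout and -1.92 ± 0.07 in wild type (SD, n = 3 each). Knockout library 2 was at -0.89, against -1.64 and -1.76 in knockout libraries 1 and 3. With the mean of log2 CPM in place of the sum, the difference between genotypes was 0.085 in place of 0.49. Il13ra1 and Il4ra made up most of the sum. Without them and Il25, a choice made after the values were seen, the ratio was -3.37 ± 0.07 in knockout and -3.32 ± 0.25 in wild type, a difference of -0.05 that is smaller than the spread between replicates. The 7 genes of that sum together were at 13.5, 9.49 and 18.4 CPM in knockout libraries 1, 2 and 3, against 26.8, 19.6 and 31.7 CPM in wild-type libraries.

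**Figure D4:**
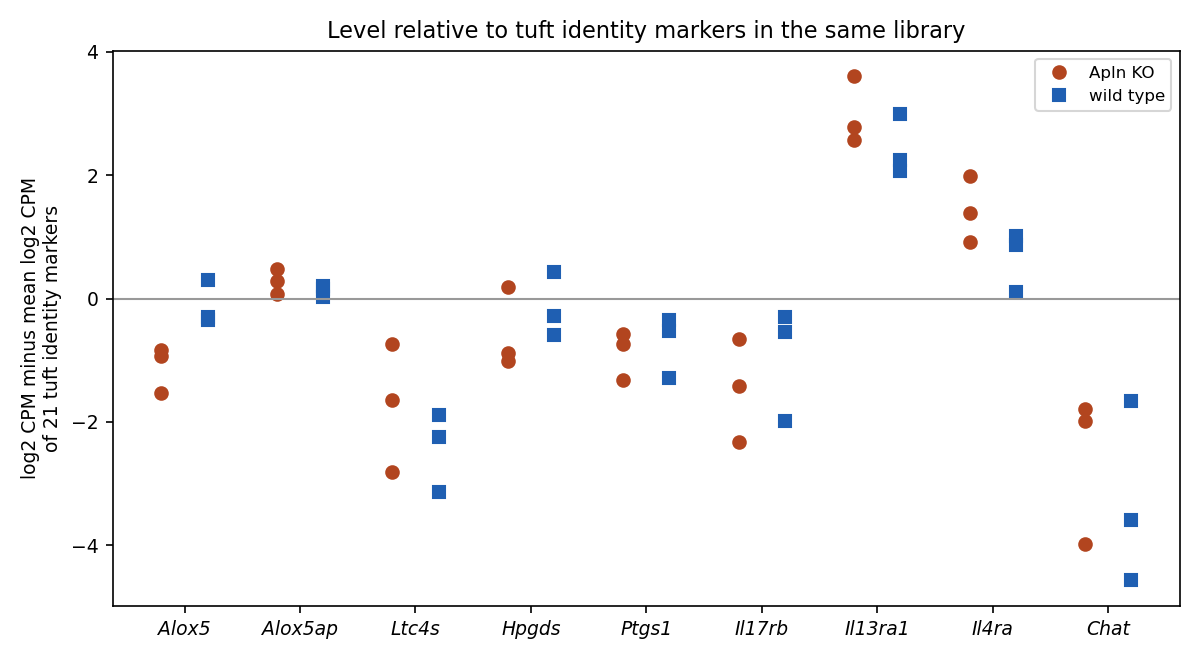
Log2 CPM of each tested gene minus the mean log2 CPM of 21 tuft identity markers in the same library (vertical axis); circles are Apln knockout and squares wild-type libraries, 3 each. Alox5 is the only gene whose knockout values (-1.53 to -0.83) all lie below its wild-type values (-0.35 to 0.30).

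Several of the 10 genes are also expressed outside the epithelium, Alox5, Alox5ap, Ltc4s, Hpgds and Ptgs1 in mast cells or macrophages and Chat in enteric neurons. Of 13 listed mast cell genes, 6 were in the table, summing to 12.0 to 20.3 CPM in knockout and 24.0 to 33.7 CPM in wild-type libraries. Nearly all of it was Kit, which crypt epithelial cells also express (15.4 ± 3.56 CPM in knockout, 27.3 ± 4.80 CPM in wild type; SD, n = 3 each). Without Kit the sum was 0.415 to 1.64 CPM in knockout and 0.598 to 1.70 CPM in wild-type libraries. Hdc, the only mast cell gene tested besides Kit, had 72 counts over the knockout and 91 over the wild-type libraries. Its log2 fold change was 0.07. The protease gene Mcpt1 had 0 counts over the knockout and 12 over the wild-type libraries, all 12 in wild-type library 1, and the IgE receptor gene Fcer1a had 0 over the knockout and 1 over the wild-type libraries.

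All 13 macrophage genes were in the table, summing to 19.9 to 24.8 CPM in knockout and 19.9 to 31.4 CPM in wild-type libraries, with Itgam the highest. Adgre1 had 1 count over the knockout and 0 over the wild-type libraries, and Csf1r had 57 over the knockout and 59 over the wild-type libraries. Cd14, which encodes a co-receptor for lipopolysaccharide, was at 4.31, 4.42 and 3.54 CPM in knockout libraries 1, 2 and 3, against 5.15, 6.64 and 5.45 CPM in wild-type libraries, without overlap. Cd68 was at 4.99 ± 1.16 CPM in knockout and 4.32 ± 1.63 CPM in wild type (SD, n = 3 each). The 4 granulocyte genes in the table summed to at most 0.378 CPM in knockout and 0.0792 CPM in wild-type libraries, with 8 counts of Siglece and 2 of S100a9 over the knockout and 2 and 0 over the wild-type libraries. Among 15 lymphocyte genes, which summed to 5.47 to 9.04 CPM in knockout and 5.01 to 11.1 CPM in wild-type libraries, Ptprc, the CD45 gene, was highest at 1.41 ± 0.335 CPM in knockout and 2.76 ± 0.566 CPM in wild type (SD, n = 3 each), without overlap. Cd3e had 25 counts over the knockout and 35 over the wild-type libraries. Of the 7 tested genes of this list 4 had a log2 fold change below 0. Cd79a, Gzma and Gzmb were above 0, with 50, 86 and 40 counts over the knockout and 38, 77 and 24 over the wild-type libraries. The 10 genes of enteric neurons and glia summed to 4.53 to 8.06 CPM in knockout and 4.54 to 13.2 CPM in wild-type libraries, mostly Snap25, with 6 and 9 counts of Elavl4 in knockout and wild type. Without Snap25 the sum was 1.26 to 3.18 CPM in knockout and 0.825 to 2.10 CPM in wild-type libraries. Endothelial genes, with 21 counts of Pecam1 and 1 of Cdh5 over the knockout and 46 and 0 over the wild-type libraries, summed to 1.38 to 2.31 CPM in knockout and 1.45 to 4.85 CPM in wild-type libraries, and fibroblast and muscle genes to 12.0 to 39.6 CPM in knockout and 2.99 to 35.3 CPM in wild-type libraries. Of other endothelial genes, Egfl7 had 45 counts over the knockout and 6 over the wild-type libraries. Tie1 had 0 over the knockout and 27 over the wild-type libraries. Vwf was the highest endothelial gene, at 0.436 ± 0.222 CPM in knockout and 1.67 ± 1.83 CPM in wild type, and Dcn the highest fibroblast gene, at 6.27 ± 4.14 CPM in knockout and 8.80 ± 7.48 CPM in wild type (SD, n = 3 each). Col1a1 had 44 counts over the knockout and 118 over the wild-type libraries, and Col1a2 had 74 over the knockout and 152 over the wild-type libraries. The muscle genes Acta2 and Myh11 went the other way, with 200 and 265 counts over the knockout and 30 and 53 over the wild-type libraries. Knockout library 2 alone held 147 of the Acta2 and 234 of the Myh11 counts. Of the 10 tested genes of this list, 6 had a log2 fold change below 0, and 2 were higher and 0 lower by unadjusted p. The part of such cells in the levels of Kit, Ptprc, Cd14 and the 10 genes was not tested.

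Around leukotriene synthesis, 0 of 11 tested genes passed the test over all genes. Their median log2 fold change was -0.30, with 1 higher and 0 lower by unadjusted p. That 1 was Mgst3, a microsomal glutathione transferase, at 54.0 ± 5.69 CPM in knockout and 36.3 ± 6.73 CPM in wild type (adjusted p 0.142 by edgeR's quasi-likelihood test; SD, n = 3 each). The leukotriene exporter gene Abcc1 was at 9.08 ± 1.27 CPM in knockout and 12.6 ± 3.58 CPM in wild type. The leukotriene B4 receptor gene Ltb4r2 was at 0.217 ± 0.162 CPM in knockout and 0.625 ± 0.195 CPM in wild type, and Cotl1, whose protein binds 5-lipoxygenase, at 9.24 ± 1.49 and 11.8 ± 1.51 CPM in knockout and wild type (SD, n = 3 each).

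Around prostaglandin synthesis 0 of 12 tested genes passed, and the median log2 fold change was 0.19, opposite in sign to those of Ptgs1 and Hpgds. The only 1 with an unadjusted p under 0.05 was Ptgr1, whose enzyme inactivates prostaglandins and leukotriene B4, at 14.1 ± 2.24 CPM in knockout and 8.32 ± 0.228 CPM in wild type (adjusted p 0.104 by edgeR's quasi-likelihood test; SD, n = 3 each). The related reductase gene Ptgr2 was at 12.9 ± 0.428 CPM in knockout and 10.04 ± 1.64 CPM in wild type. The prostaglandin E receptor gene Ptger1 was at 9.62 ± 0.491 CPM in knockout and 13.9 ± 5.27 CPM in wild type, and the prostaglandin E synthase gene Ptges2 at 6.00 ± 1.40 and 4.77 ± 0.842 CPM in knockout and wild type (SD, n = 3 each).

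The list of other type 2 cytokine pathway genes held 20 tested genes, among them receptor and signalling genes and Retnlb (log2 fold change -2.13). Of these, 0 passed over all genes, and the median log2 fold change was -0.25. By unadjusted p 4 were lower and 0 higher, where 7.65% of all genes were lower and 7.53% higher. Stat3, a transcription factor activated by cytokine receptors, was at 14.2 ± 5.18 CPM in knockout and 28.5 ± 9.58 CPM in wild type (adjusted p 0.129 by edgeR's quasi-likelihood test; SD, n = 3 each). Il17ra, the subunit that pairs with the Il17rb product to bind IL-25, was at 6.46, 6.497 and 7.13 CPM in knockout libraries 1, 2 and 3, against 9.07, 9.08 and 10.6 CPM in wild-type libraries, without overlap (adjusted p 0.250 by edgeR's quasi-likelihood test). The kinase gene Jak3 was at 1.33 ± 0.485 CPM in knockout and 3.13 ± 1.61 CPM in wild type. Stat6, the transcription factor downstream of Il4ra, was at 20.2 ± 1.18 CPM in knockout and 26.6 ± 5.71 CPM in wild type (SD, n = 3 each). In the acetylcholine list 0 of 7 tested genes passed, with 1 higher and 1 lower by unadjusted p. Bche, which breaks down acetylcholine, was at 25.1 ± 2.74 CPM in knockout and 15.8 ± 5.39 CPM in wild type, and the muscarinic receptor gene Chrm1 at 0.932 ± 0.391 and 2.51 ± 1.33 CPM in knockout and wild type (SD, n = 3 each). The choline transporter-like gene Slc44a2 was at 2.47 ± 0.811 CPM in knockout and 3.65 ± 1.24 CPM in wild type, and Chrm3, another muscarinic receptor gene, at 1.42 ± 0.507 and 1.82 ± 0.620 CPM in knockout and wild type (SD, n = 3 each).

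**Figure D5:**
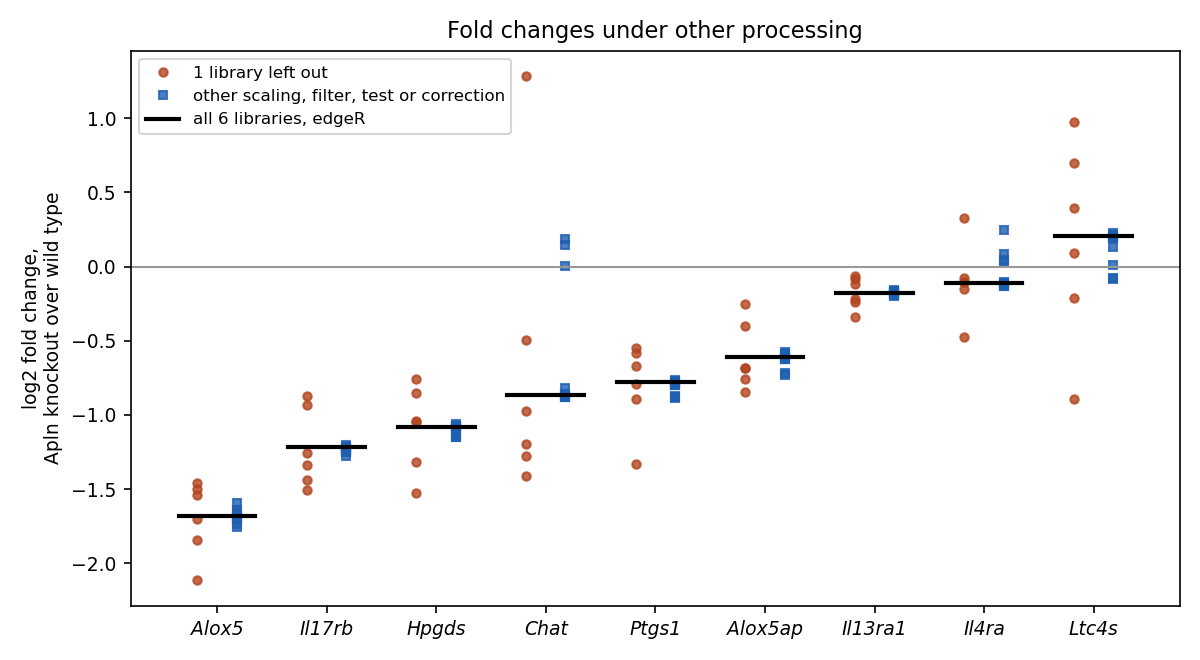
Log2 fold change of each tested gene, Apln knockout over wild type (vertical axis), with all 6 libraries (black lines), with 1 library left out (circles, 6 per gene) and under other scaling, filters, tests or corrections (squares). Alox5, Il17rb, Hpgds, Ptgs1, Alox5ap and Il13ra1 stay below 0 under every alternative shown, and Chat, Il4ra and Ltc4s lie on both sides of 0.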

How the data were processed

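Total RNA of sorted cells was amplified (Ovation Pico WTA) before Nextera DNA Flex library preparation, per the labels' protocols. The authors deposited whole-number counts per Ensembl gene, not normalized, made with STAR 2.6.1 and HTSeq on mm10, per the submitters' processing notes, with annotation and strand setting not given in the sources used here. GENCODE M21 gave symbols for 28551 of 28564 identifiers, coordinates and lengths. In R 4.3.3, edgeR 4.0.16 (filterByExpr, count minimum 10, total minimum 15; TMM; glmQLFit and glmQLFTest, no covariate) compared the genotypes over 15122 genes, with Benjamini-Hochberg adjustment and a threshold of 0.05; 13442 genes were filtered out. CPM are TMM-scaled and log2 CPM have a prior count of 2. The test was tried on simulated counts, where it called 2.90% of 1.5-fold, 34.0% of 2-fold and 67.8% of 3-fold changes. A gene that did not pass may therefore still differ. Alternatives were other scalings and filters, DESeq2 1.42.0, limma-voom (limma 3.58.1), length and GC offsets, a replicate block and leaving out each library.

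The genes and lists were chosen with earlier results of these data known. Named are the 10 genes and up to 4 genes of lowest p per pathway and tuft cell list. Of other cell type lists the first 2 symbols and the highest gene are named, where in the table. The genes of most similar profile are named too. Dclk1, Muc2, Myh11, Acta2, Mcpt1, Hdc, Csf1r, Cd14, Fcer1a, Epcam, Cd44 and overlapping genes were named outside this rule. So were Gng13, Tas1r3, Cd79a, Gzma, Gzmb, Egfl7, Tie1 and Retnlb.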

Additional observations from a re-analysis of the deposited data

How the results depend on the processing

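Of the 10 genes, 0 passed under most alternatives and 1, Alox5, under edgeR with no filter, the DESeq2 Wald test and the replicate block; leaving out single libraries gave 0 in each case. The number of all genes called was 26, against 1 with DESeq2 size factors, upper-quartile scaling, the length and GC correction or without the 5 most abundant entries, 44 with the replicate block and that correction together, 56 with limma-voom, 117 with a minimum of 1 CPM in 3 libraries, 173 with the replicate block, 581 with the DESeq2 Wald test and 629 with no filter. Leaving out single libraries gave 0 to 358, the highest without wild-type library 3, and a median log2 fold change of the tested genes between -0.89 and -0.25. Signs turned for 3 genes of low or uneven counts. Ltc4s had 0.21, but -0.078 in limma-voom, -0.087 with the replicate block and length and GC correction, and -0.89 to 0.97 with single libraries left out. Il4ra had -0.11, but 0.046 in limma-voom, 0.086 with the length and GC correction, 0.031 with the replicate block, 0.24 with both, and -0.47 to 0.33 with single libraries left out. Chat had -0.86, but 0.0055 in limma-voom, 0.15 with the replicate block, 0.19 with block and correction, and -1.41 to 1.28 with single libraries left out. The cause was not tested. The ratio of the 10 genes to tuft identity markers was 0.49 higher in knockout on the log2 scale, 0.53 without the most abundant marker, 0.085 with the mean of log2 CPM in place of the sum, and -0.053 without Il13ra1, Il4ra and Il25, a choice made after seeing the data. With union exon lengths 6 genes kept their place by level in wild type and 5 in knockout.

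No label says whether replicate numbers of the titles pair the samples. Deviations of same-numbered knockout and wild-type libraries from their group means correlated at 0.04, 0.06 and 0.01 over genes. For unlike numbers the correlations lay between -0.05 and 0.02. Knockout library 3 correlated better with wild-type library 1 (0.017) than with wild-type library 3 (0.011), and every other library correlated best with its own number. With 3 libraries per genotype, centred on their means, such small values cannot decide whether the samples were paired. With the block the adjusted p of Alox5 was 0.0320 (edgeR's quasi-likelihood test, 16 alternatives from 0.000901 to 0.404), where 1.14% of all genes passed. Ltc4s, Chat and Il25 had under 100 counts in every library.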

Other observations

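Among genes other than the 9 tested ones, with a mean of at least 50 counts, the profile most like the mean of the 9 tested genes over the 6 libraries was that of Stx6, a syntaxin of vesicle traffic, with a mean absolute difference of 0.119 on the log2 scale. Stx6 was at 4.07, 3.96 and 5.24 CPM in knockout libraries 1, 2 and 3, against 6.58, 5.19 and 8.22 CPM in wild-type libraries. Next were Gm12216 at 0.136, the glycogen phosphorylase gene Pygl at 0.140, Chn2 at 0.140 and the histone methyltransferase gene Kmt2b at 0.141. None of these 5 was in the lists used here. Among the 9 genes themselves Alox5ap was nearest to their mean profile, at 0.100, and Chat farthest from it, at 1.06.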
